A study of Mus musculus with 5 samples.

Results

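PU.1 binding in plasmacytoid dendritic cells (pDCs) was described over an input library from window counts of chromatin immunoprecipitation followed by sequencing (ChIP-seq). Of the 5 libraries of the study, 3 were used: PU.1 replicates 1 and 2 from pDCs, and the only input, chromatin without immunoprecipitation, which came from conventional dendritic cells (cDCs). The PU.1 libraries of cDCs were not used. All cells were mouse dendritic cells of a strain labelled C56BL/6, grown with Flt3L, the cytokine that drives dendritic cell development in culture, and the labels name no genetic change or further treatment. The 3 libraries shared fixation with 1% paraformaldehyde and sonication, and each precipitation used 20 µg of the T-20 antibody against PU.1 on 100 µg of chromatin. Of 329996 deposited windows, 329850 were kept after windows with 1000 or more input counts were left out, and windows at most 100 bp apart were merged into 67237 sites.

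PU.1, encoded by Spi1, is an ETS-family transcription factor that binds purine-rich DNA around a GGAA core and is needed for myeloid and lymphoid development. It can bind DNA alone at an extended site, or beside IRF4 or IRF8 at a composite of an ETS and an interferon regulatory factor half-site. pDCs sense viral nucleic acids through endosomal Toll-like receptors and secrete large amounts of type I interferon. Their identity depends on TCF4, and BCL11A, SPIB, IRF8, RUNX2 and ZEB2 also take part. SPIB is a close relative of PU.1 that recognises nearly the same sequence.

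The strength of a site was its summit, the window with the highest pDC signal in CPM (counts per 1000000 counts over the kept windows of a library), divided by the larger of the site's mean input CPM and the mean of all kept windows, 3.03 CPM. This ratio is called the fold over background. Promoter sequence showed a DNA word at the strong sites that the choice of sites had not used. The sequences below lie upstream of RefSeq gene starts (GRCm38.p6, the coordinates of mm10), outside every annotated gene span, and each holds a site of at least 8-fold. They are written along the gene's strand, and capitals mark the extended PU.1 word GAGGAAGT or its reverse complement ACTTCCTC.
Gm14548, chr7:3898227-3898286: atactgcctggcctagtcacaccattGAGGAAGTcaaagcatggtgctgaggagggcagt
Traf3ip3, chr1:193201619-193201678: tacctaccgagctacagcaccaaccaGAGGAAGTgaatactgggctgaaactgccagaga
Dusp5, chr19:53528926-53528985: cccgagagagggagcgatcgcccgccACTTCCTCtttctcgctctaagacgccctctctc
Nceh1, chr3:27182905-27182964: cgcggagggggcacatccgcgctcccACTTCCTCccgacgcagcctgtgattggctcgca
Pacc1, chr1:191325755-191325814: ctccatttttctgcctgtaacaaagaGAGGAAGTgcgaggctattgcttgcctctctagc
Rab32, chr10:10558217-10558276: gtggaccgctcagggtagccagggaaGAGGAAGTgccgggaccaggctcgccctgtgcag
Anapc4, chr5:52834029-52834088: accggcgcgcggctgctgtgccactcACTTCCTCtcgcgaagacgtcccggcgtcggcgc

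In these promoters the word in capitals lay within 50 bp of the summit. Its centre was 1.5 bp from the summit window at Gm14548, 0.5 bp at Dusp5 and 3.5 bp at Anapc4, which encodes a subunit of the anaphase-promoting complex. It was 43.5 bp away at Traf3ip3, which encodes a TRAF3-interacting protein of lymphoid cells. The Traf3ip3 promoter holds another copy of the word, whose GGAAGT centre was 29.5 bp from the summit. The Gm14548 summit held 50.4 CPM in pDC replicate 1 and 33.8 CPM in replicate 2, over a mean input of 2.31 CPM. The Dusp5 summit, at a phosphatase of MAP kinases, held 33.9 and 24.7 CPM over 0.947 CPM. Rab32, a small GTPase of lysosome-related organelles, had 29.9 and 21.4 CPM over 1.60 CPM. Nceh1, a cholesterol ester hydrolase, had 32.0 and 26.2 CPM, and Pacc1, a proton-activated chloride channel, had 30.2 and 27.2 CPM. In each of these promoters both pDC libraries stood several times above the input.

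A near copy shows how far such sequences repeat within gene families. The promoter stretch of Lilra6, a leukocyte immunoglobulin-like receptor gene, had the same base as that of Gm14548 at 56 of 60 positions.
Lilra6, chr7:3915618-3915677: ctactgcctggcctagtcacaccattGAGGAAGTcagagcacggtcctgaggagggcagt
Its site was 7.84-fold over background in replicate 1 and 7.00-fold in replicate 2, against 16.6-fold and 11.1-fold at Gm14548. The promoter of Gm15448, also on chromosome 7, holds nearly the same stretch, and its site was 3.31-fold and 2.22-fold. Reads of such near-identical copies could have been split between them by the authors' alignment, so the differences between these copies are uncertain.

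Across the 32817 promoter windows of the RefSeq table, from 250 bases before to 50 bases after a gene start, the share holding GAGGAAGT on either strand rose with the strength of the site whose summit fell in the window. It was 46.6% of 163 promoters with a site of 5-fold or more (76 promoters), 22.2% of 677 with a 2 to 5-fold site, 5.57% of 3970 with a weaker site and 2.16% of 28007 with no summit, beside 3.20% of all promoters. With CPM from totals over all windows, which raises the folds, 1222 promoters had a site of 5-fold or more and 21.5% of them held the word. Promoters can share a site. Counted per distinct site, 48.1% of the 133 strongest had the word. The nearest match lay within 50 bp of the summit in 90.8% of the strong promoters that had one, at a median of 17.5 bp. The shorter word GGAAGT, contained in GAGGAAGT, occurred in 88.3% of the strong promoters and in 23.8% of all.

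A composite ETS and IRF word, GGAA and GAAA with any 2 bases between, also became more frequent with the strength of the site. It was in 7.98% of strong promoters (13 promoters), 4.43% of those with 2 to 5-fold sites, 3.32% of those with weaker ones and 2.56% of promoters with no summit, beside 2.72% of all. An octamer of other ETS factors, CCGGAAGT, which shares GGAAGT with the PU.1 word, was in 12.9% of strong promoters, 15.7% of those with 2 to 5-fold sites and 15.2% of those with weaker ones, against 1.95% of promoters with no summit. The RUNX word TGTGGT was in 15.3% of strong promoters and 16.8% of all, the E-box word CAGGTG in 16.6% and 20.2%, and the interferon-response-like word of GAAA, any 2 bases and GAAA in 3.07% and 3.43%. Median GC content was 60% in the strong promoters, 60.3% in both weaker groups and 51.3% in promoters with no summit. The part of base composition in these shares was not tested. A match is a description of letters and not evidence of binding to it, and most of the strongest sites lie outside promoters, where no sequence was read.

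**Figure D1:**
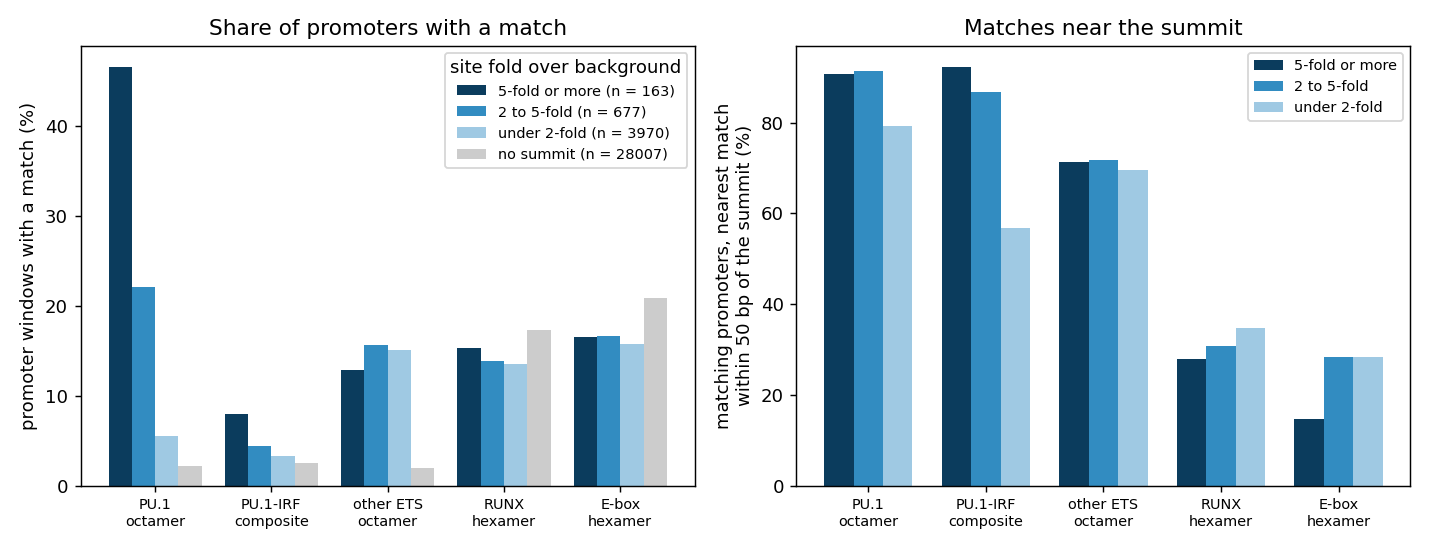
Left, share of promoter windows (%) holding each of 5 words, by the fold over background of the site in the promoter. Right, of the promoters with a match and a site, the share (%) whose nearest match lies within 50 bp of the summit; the PU.1 octamer rises to 46.6% at the strongest sites, and 90.8% of those matches lie near the summit.

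A match in a promoter did not always come with signal. Both stretches below belong to low-affinity Fc receptor genes on chromosome 1 and have GGAAGT, in capitals on either strand, close to the window that is highest in pDCs.
Fcgr2b, chr1:170976072-170976129: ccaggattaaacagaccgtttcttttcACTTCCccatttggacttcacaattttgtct
Fcgr4, chr1:171018875-171018925: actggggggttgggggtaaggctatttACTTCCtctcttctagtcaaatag
Fcgr2b encodes the inhibitory Fc receptor, and its promoter matches the composite word and not the octamer. Its site held 18.5 CPM in replicate 1 and 16.1 CPM in replicate 2 (6.11-fold and 5.31-fold). Fcgr4 encodes an activating Fc receptor of macrophages and neutrophils, and its promoter does hold the octamer, with the GGAAGT centre 0.5 bp from the summit. Yet its site held only 1.92 and 3.36 CPM (0.634-fold and 1.11-fold), below the level of an average kept window in replicate 1 and near it in replicate 2.

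The libraries differed in depth and in background, which bears on every fold. Totals over all windows were 8099633 and 6896416 counts in the pDC replicates and 2776490 in the input. The left-out repeat windows held 74.6% of the input counts but 10.1% and 17.98% of those of pDC replicates 1 and 2, which left 7282573, 5656601 and 704301 counts. The window nearest the limit on the kept side had 971 input counts and the nearest left-out one 1002. Of the kept windows, 17.7% had no input count, and 1 input count was worth 1.42 CPM. Each library was scaled to its own kept total, so a fold is relative to the average listed window: with totals over all windows the median gene locus moved from 0.03 to 1.79 on the log2 scale. The cells were bulk populations, so fewer bound cells and weaker binding per cell cannot be told apart. As the libraries measure binding and not RNA, pDC marker genes could not be used to check the cell label.

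The pDC replicates ranked the same sites high, with larger folds in replicate 1. Of the 1000 sites with the highest fold in replicate 1, 74.0% were also among the 1000 highest of replicate 2, and for the 100 and 5000 highest the shares were 65.0% and 78.8%. The top 1000 of replicate 1 had a median of 8.24-fold there and 6.82-fold in replicate 2. Over all 67237 sites, which share chromatin accessibility and mappability, Pearson's r of the log2 values was 0.81 between the pDC replicates, and 0.00196 and 0.0565 between each of them and the input. Replicate 1 had the higher fold at 81.2% of the 1000 strongest sites, against 45.4% of all sites. Replicate 2, with the lower strong folds, was also the library with the larger share of repeat windows, and their part in the difference was not tested. The mean chi-square per window between the replicates was 2.16, where counting error alone gives about 1, so they differed by more than counting error.

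**Figure D2:**
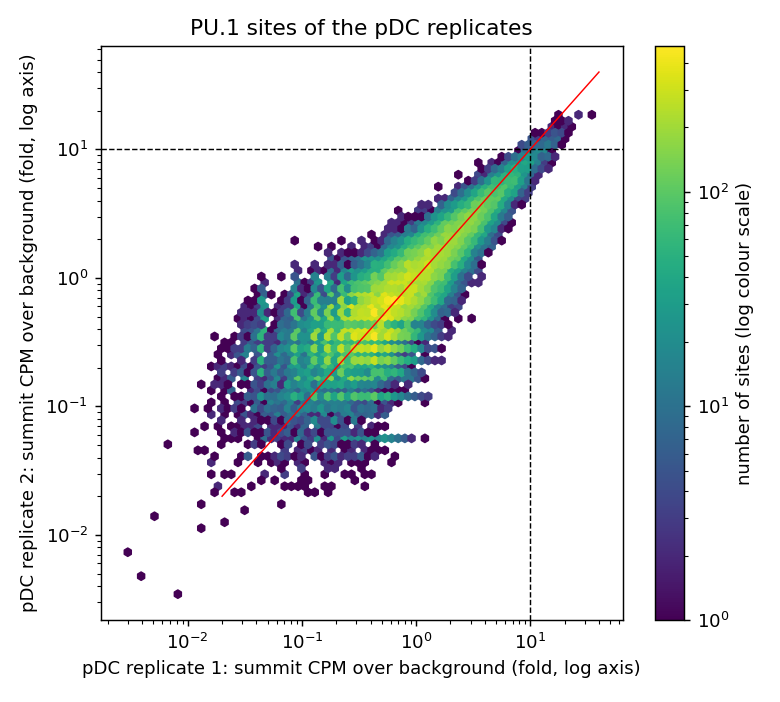
Fold over background of 66942 sites in pDC replicate 1 (x, log axis) against replicate 2 (y, log axis), coloured by the number of sites; 295 sites with no count in the summit window of a replicate are not drawn. The red line marks equal folds and the dashed lines 10-fold; the strongest sites lie to the right of the red line, with higher folds in replicate 1.

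A small set of sites stood far above the rest. The fold reached 10 in both pDC libraries at 107 sites, 0.159% of all, in replicate 1 at 262 sites and in replicate 2 at 119. This number depends on the measure: a ratio of site means with a pseudocount of 1 CPM gave 10 such sites, and totals over all windows gave 3833. The median site had a fold of 0.618, and the 1000 strongest had a median of 7.49 and a lowest value of 6.09. In the edgeR quasi-likelihood test of site sums, 5281 of 63745 sites (8.28%) were above input when an adjusted p (Benjamini-Hochberg) under 0.05 and a 2-fold difference were required, and 4225 (6.63%) were below it by the same rule. TMM scaling gave 7747 above and 2547 below, totals over all windows 25910 and 354, and DESeq2 5571 and 589. The fit took the spread of the input, which has no replicate, from the pDC libraries. With 2 libraries against 1, the smallest p of an exact permutation test on a single site is 0.333, so the site calls rest on the fit across all sites.

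The strongest site lay inside the span of Soga1, a gene linked to autophagy and glucose output, at chr2:157063351-157063810. Its summit held 105 CPM in pDC replicate 1, 53.4 CPM in replicate 2 and 2.84 CPM in the input, or 34.6-fold and 17.6-fold. The second was 35.1 kb from Atp1b3, a subunit of the sodium pump, at chr9:96399301-96399910, with 82.8, 56.4 and 4.26 CPM in the same order. The third was 11.6 kb outside Bcl11a, the transcription factor gene required for pDC development, at chr11:24184901-24185360, with 77.6, 53.7 and 2.84 CPM. At each of these sites both pDC libraries were far above the input, and replicate 1 was the higher.

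The next sites lay at genes of varied function. A site inside Nnmt, which encodes nicotinamide N-methyltransferase, held 79.2 and 63.6 CPM over 5.68 in the input. One inside Slc2a1, the glucose transporter GLUT1, held 67.8 and 48.3 CPM over 4.26. A site 4.07 kb from Psap, which encodes the precursor of the lysosomal saposins, was 20.0-fold and 14.8-fold over background. Near Actb, which encodes beta-actin, a site 1.33 kb outside the gene had 61.9 and 38.4 CPM with no input count in its summit window. Actr2, a subunit of the actin-nucleating Arp2/3 complex, had a site inside its span at 19.0-fold and 12.7-fold. Cyth4, an ARF exchange factor of blood cells, had 18.6-fold and 14.1-fold. At all of these sites both pDC libraries exceeded the input many times. The actin genes and the pump subunit are expressed in nearly all cells.

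Genes with a known role in dendritic or immune cells were also among the 20. Ly75 encodes DEC-205, an antigen uptake receptor, and a site 3.25 kb outside it held 54.9 and 49.7 CPM over 1.42 in the input. Lifr, the receptor of leukaemia inhibitory factor, had a site 5.36 kb outside with 52.6 and 48.8 CPM. Other sites of the 20 lay inside or nearest to Pip4k2a, Bmp2k, Jazf1, Tnni2, Slc22a28, Susd1, Lactb2 and Sfi1, at 16.5 to 22.9-fold in replicate 1 and 13.1 to 17.6-fold in replicate 2. The site near Slc22a28 was the only one of the 20 with the higher fold in replicate 2 (17.3-fold against 17.6-fold). These sites were chosen for their signal over input, so their folds are a description with no test. The order depends on the measure of strength: with a ratio of site means and a pseudocount of 1 CPM, 0 of the 20 stayed in the top 20 and 8 in the top 100, while the lowest was at rank 470.

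**Figure D3:**
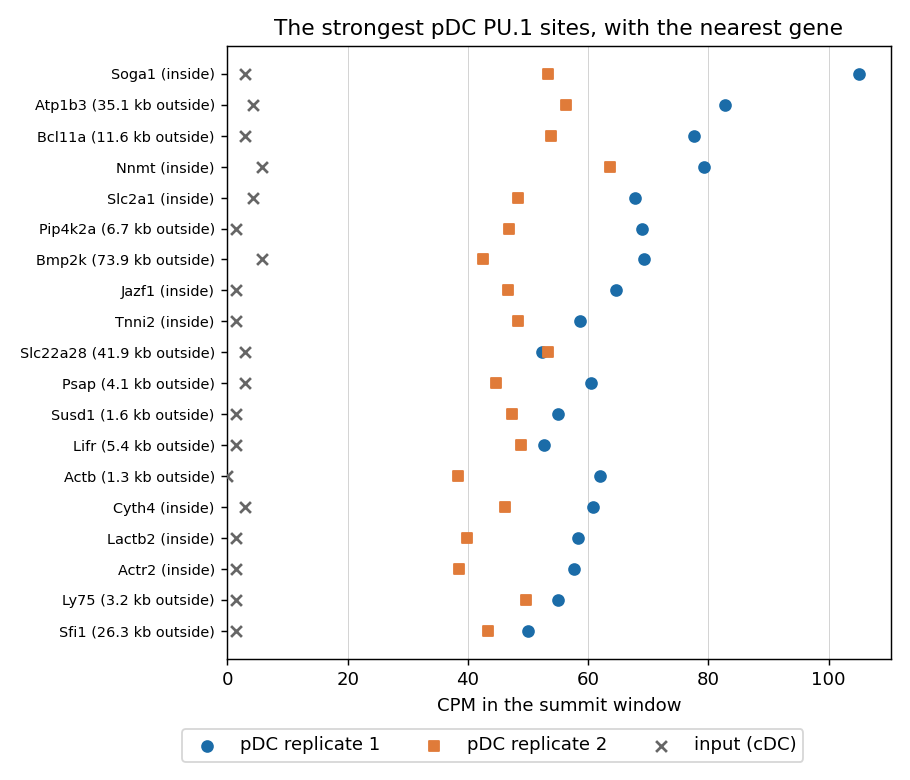
CPM in the summit window of 19 of the 20 strongest sites in pDC replicate 1 (circles), pDC replicate 2 (squares) and the input (crosses), with the nearest gene and the distance to its span. At each site drawn both pDC libraries lie above 38 CPM and the input is at most 5.68 CPM.

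The pDC signal of strong sites was narrow, and the input was flat beneath it. Averaged over the 100 strongest sites, replicate 1 held 49.5 CPM in the summit window, 26.3 CPM at 100 bp to its left and 3.25 CPM at 200 bp, while replicate 2 held 37.4, 20.5 and 3.21 CPM. The input was 1.87 CPM at the summit and 2.21 CPM at 200 bp. The median width was 460 bp for the 100 strongest sites, 410 bp for the 1000 strongest and 210 bp for all.

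**Figure D4:**
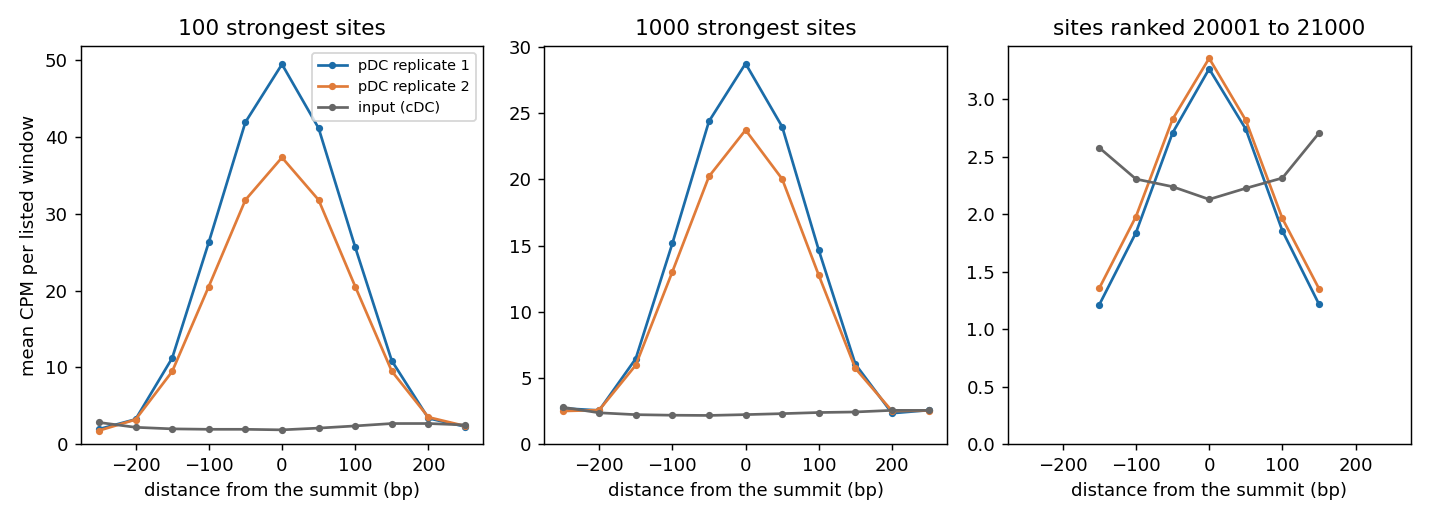
Mean CPM per listed window by distance from the summit (bp) for the 100 strongest sites, the 1000 strongest and 1000 sites of middle rank, in each library; offsets listed at under 20% of sites are not drawn, and the vertical scales differ. In the left panel the pDC lines peak at 49.5 and 37.4 CPM over an input near 2 CPM.

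Strong sites were placed along genes much as all sites were. Of the 1000 strongest, 53.7% lay inside a gene span (95% Wilson interval 50.6 to 56.8%), 20.9% within 10 kb of one and 25.4% farther away, beside 54.4%, 18.2% and 27.4% of all sites. Of those with an annotated start on their chromosome, 17.7% lay within 1 kb of it, against 14.4% of all sites. The 100 strongest did not follow the small excess at starts, with 11.2%. Chromosome X held 2 of the 1000 strongest, or 0.136% of its 1468 sites, while the autosomes ranged from 1.11% to 1.93%. Mean signal per window on chromosome X was 2.23 and 2.40 CPM in the pDC libraries and 2.95 CPM in the input.

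Dividing by the input removed sites that looked strong in pDCs alone. Of the 1000 sites with the highest pDC signal, 163 left the top 1000 over input, and 25 of these fell past rank 5000, among them 7 of the 20 highest by signal. The highest of the 163, on chromosome 14, had 65.6 and 132 CPM in the pDC summit window against 1332 CPM in the input. A site 21.3 kb from Ly6c2, whose product Ly6C marks pDCs and monocytes, had 45.7 and 45.1 CPM against 501.2 CPM of input. A site 61.1 kb from Axin2, a Wnt pathway gene, had 49.98 and 31.1 CPM against 90.9 CPM. These windows lie below the limit of 1000 input counts and so were kept.

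Gene loci, a gene span plus 10 kb on both sides, were tested in the same way on their summed counts. Of 15228 loci, 1587 (10.4%) were above input and 938 (6.16%) below, and 935 (6.14%) held a site of the top 1000. Totals over all windows gave 11057 above and 57 below, and DESeq2 1110 above and 441 below. Each log2 fold below is given with its SE (n = 2 pDC libraries and 1 input). A window can belong to several genes, and 50% of the windows of the median locus also counted for another gene. The loci with the highest folds had few windows and few input counts. Gpr137b, which encodes a lysosomal membrane protein, had 82.5 and 65.8 CPM in the pDC libraries and no input count, so its signal was at least 17.4-fold higher against a floor of 3 input counts. By the same floor, Mttp and Trmt10a, whose loci share all their windows, were at least 10.6-fold higher and Klk1b16 at least 7.95-fold.

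Of the 10 loci among the 15 highest that had input counts, 7 had 1 to 3 input counts. Tgfb2, which encodes a TGF-beta ligand, had 57.7 and 54.45 CPM against 2 input counts, a ratio of 19.7 with a 95% counting interval of 5.47 to 163. Actl6a, a subunit of chromatin remodelling complexes, had a ratio of 14.98 (4.15 to 124), but 70% of its windows were shared, its span alone was not called (adjusted p = 0.173 in edgeR) and its only site ranked 44883 at 0.44-fold. Llgl2, a cell polarity gene, had a ratio of 14.7 (5.03 to 71.2) with all its windows shared and its only site 9.02 kb outside the gene. Tex101, L3mbtl2, Gm15448 and Wdr53 had ratios of 14.6, 14.2, 13.6 and 12.7, of which Tex101 lost its call in DESeq2 (adjusted p = 0.0833) and L3mbtl2 for its span alone (0.50 on the log2 scale). With 50 kb flanks L3mbtl2 (0.53), Wdr53 (0.86), Llgl2 (0.87) and Klk1b16 (1.13) also lost their calls, and all windows of Wdr53 were shared. Gm15448 belongs to the near-identical copies above, so its reads may have been split. Necab3 rested on more input, with 233 and 149 CPM against 9 input counts and a log2 fold of 3.90 ± 0.41. All its windows were shared with other genes, however, and its span alone gave -2.57. Sult6b2, a sulfotransferase gene, was at 3.72 ± 0.46 and Msh6, the mismatch repair gene, at 3.70 ± 0.46, each over 7 input counts.

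Among the 3625 loci with at least 50 input counts, a group added after values were seen, the highest were better measured. Hmga2, a chromatin architectural factor gene, led with 391.8 and 273 CPM against 73.8 CPM of input and a log2 fold of 2.17 ± 0.28. Rab35, an endosomal recycling GTPase gene, had 2.13 ± 0.28 and Sbno2, a corepressor gene of the IL-10 response, 2.11 ± 0.27, with 2 sites of the top 1000. Meis1, a homeobox gene of blood stem cells, had 371 and 233 CPM against 78.1 CPM (1.95 ± 0.28), and Ptpn1, a tyrosine phosphatase gene of cytokine signalling, 473 and 412 CPM against 118 CPM (1.91 ± 0.26). In each of these loci both pDC libraries were above the input.

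Genes of pDC identity were called above input at 8 of 37 measured loci (21.6%) and below it at 2, beside 10.4% and 6.16% of all loci. Their median log2 fold was 0.53, where that of all loci was 0.03. These loci held a median of 32 windows, against 15 for all loci. The medians were also higher for the genes of cDC identity (28), regulators (30.5), the Toll-like receptor pathway (24) and MHC class II presentation (27.5) described below. A larger locus has more windows that can hold a strong site, and the part of locus size in these shares was not tested. Siglech, the pDC lectin receptor (chr7:55768154-55779448), had 423 and 304 CPM in the pDC libraries and 114 CPM in the input, a log2 fold of 1.68 ± 0.26. Its strongest site, rank 27 of all, lay 5.21 kb outside the gene at chr7:55784451-55784960, with 54.0 and 37.3 CPM in the summit window over a mean input of 1.16 CPM. At the promoter a weaker site reached 4.13-fold and 2.57-fold and was not called. Spib had 2.07 ± 0.35 and Irf7, the interferon-inducing factor gene, 1.83 ± 0.33, but each shared all its windows with neighbours, and the Spib span alone gave -0.79. The strongest Spib site was 2.32 kb outside the gene at 10.1-fold and 7.64-fold.

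Other pDC genes varied from clear signal to none. Ly6d, which marks lymphoid-biased pDC progenitors, was at 1.67 ± 0.49 and Tlr9, the DNA-sensing Toll-like receptor gene, at 1.59 ± 0.28, both with all windows shared. The Tlr9 site 43 bp before its span held 26.5 and 25.8 CPM, and the promoter there contains the octamer. Zeb2, a zinc-finger repressor gene, was at 1.07 ± 0.29, but 0.29 for its span alone. Cox6a2 had no input count and 7.14 and 6.19 CPM, and was not called. Pacsin1, a membrane-shaping protein gene, was below input (-1.56 ± 0.52). It lost its call in DESeq2, for its span alone (-0.61) and with 50 kb flanks (-0.03).

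Further genes fixed for naming were not called at the locus. These were Irf8 (0.87 ± 0.31, adjusted p = 0.029 but under 2-fold in edgeR's test), Tcf4 (0.04 ± 0.24), Bcl11a (-0.02 ± 0.24), Runx2 (-0.31 ± 0.22), Bst2 (0.36 ± 0.70), Tlr7 (0.57 ± 0.56), Ccr9 (-0.64 ± 0.45) and Dntt (0.18 ± 0.41). A quiet locus could still have a strong site beyond its edge. Bcl11a had a near-zero log2 fold, while the third strongest site of all lay just past the edge of its locus. Within 100 kb of Tcf4, the factor gene that sets pDC identity, the strongest of 23 sites was inside the gene at rank 4037, with 9.75 and 10.3 CPM. Within 100 kb of Irf8 the strongest was 36.1 kb outside the gene, at rank 1100 with 6.81-fold and 4.97-fold. The strongest near Spi1 itself lay 11.7 kb outside it, nearest to Slc39a13, at rank 139 with 35.8 and 28.6 CPM (11.8-fold and 9.45-fold), and 3 sites of the top 1000 lay within 100 kb of Spi1. Near Tlr7, on chromosome X, and near Flt3 the strongest ranks were 4209 and 5479.

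Regulators of dendritic and myeloid cells were above input at 7 of 32 loci (21.9%, beside 10.4% of all loci), with a median of 0.42. The locus of Cbfb, the partner subunit of RUNX proteins, had 187 and 124 CPM against 28.4 CPM (2.45 ± 0.36), and its promoter contains the octamer. Spi1 was at 1.32 ± 0.27 with 238 and 224 CPM against 92.3 CPM, and its strongest site within the locus was 9.33-fold and 6.40-fold. Cebpb was at 1.96 ± 0.60, on 7 input counts, and lost its call in DESeq2 and with 50 kb flanks (0.34). Cbfb also lost its call with 50 kb flanks (0.95). At the low end were Nfil3 (-0.54 ± 0.34) and Zfp366 (-0.82 ± 0.27), neither called. Zfp366 had an adjusted p of 0.0199 in edgeR's test but was under the 2-fold difference. None of the 32 was below input by the 2-fold rule in edgeR's test, at an unadjusted p under 0.05 or in DESeq2, with 0 in each.

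Genes of cDC identity had a median of -0.06, with 5 of 32 loci above (15.6%, beside 10.4% of all loci) and 4 below (12.5%, beside 6.16%). The highest were Irf4 (1.57 ± 0.39), a factor of type 2 cDCs, which was at -0.39 for its span alone, Clec10a (1.54 ± 0.54), a lectin gene, and Snx22 (1.30 ± 0.39). Clec10a, on 10 input counts, lost its call in DESeq2 (adjusted p = 0.0971), for its span alone (0.34) and with 50 kb flanks (0.16). Snx22 shared all its windows with other genes and lost its call with 50 kb flanks (0.11). Cd209a, the DC-SIGN homologue gene, had 45.3 and 43.1 CPM against 217 CPM of input (-2.29 ± 0.27), and Clec4a4 6.32 and 6.90 CPM against 29.8 CPM (-2.17 ± 0.63). Cd209a lost its call for its span alone (-1.03) and with 50 kb flanks (-0.67). Clec4a4 kept its size but not its call for its span alone (-2.17). The transcription factor genes Id2 (-0.01 ± 0.54), Batf3 (0.32 ± 0.33) and Zbtb46 (0.25 ± 0.24) were not called, although a site inside Zbtb46 ranked 1065 at 6.61-fold and 5.36-fold. Because the input came from cDCs, a locus below input cannot be told apart from one whose chromatin gave more input reads in cDCs.

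Strong sites were frequent at genes of Fc receptors and of the signalling proteins of immunoreceptor (ITAM) motifs. Of 21 loci, 11 (52.4%) held a site of the top 1000, against 6.14% of all loci, and 5 were above input (23.8%, beside 10.4%) and 2 below (9.52%, beside 6.16%), with a median of 0.79. These loci were larger, with a median of 44 windows against 15 for all loci, and the part of locus size was not tested. Syk, the kinase that ITAM motifs recruit, had 360 and 310 CPM against 109 CPM (1.61 ± 0.26), and a site 9.91 kb outside it ranked 36 at 16.2-fold and 12.2-fold. Fcgr2b was at 2.24 ± 0.36 and Btk, a kinase gene of B cells and pDCs, at 1.32 ± 0.34. Of the Btk windows 88.5% were shared, and its call was lost for its span alone (0.39) and with 50 kb flanks (0.59). Syk lost its call for its span alone (0.63) and Fcgr2b with 50 kb flanks (0.33). The loci of the activating receptors Fcgr3 (2.75 and 4.77 CPM against 36.9 CPM, -3.30 ± 0.66) and Fcgr4 (-1.11 ± 0.40) were below. Fcgr3 rested on 5 windows and lost its call with 50 kb flanks (-0.91). Fcgr4 lost its call in DESeq2 and for its span alone (-0.48), and changed sign with 50 kb flanks (0.32). The low-affinity Fc receptor genes share near-identical stretches, so reads may have been split between copies. Named after their values were seen, the kinase gene Lyn (best site rank 256), the adaptor genes Pik3ap1 (171) and Blnk (642) and the phospholipase gene Plcg2 (440) were among the 11, none of them called at the locus.

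The Toll-like receptor and type I interferon pathway had 7 of 30 loci above (23.3%, beside 10.4% of all loci) and 2 below (6.67%, beside 6.16%), with a median of 0.28. A site of the top 1000 lay in 7 of the loci (23.3%, beside 6.14% of all). Cnpy3, a chaperone gene for Toll-like receptors, was at 1.85 ± 0.35 with all windows shared, Irf7 at 1.83 ± 0.33 and Irak1, a receptor kinase gene, at 1.76 ± 0.66 on 6 input counts. Ifnb1, the interferon beta gene, had 10.2 and 13.1 CPM against 39.8 CPM (-1.78 ± 0.54), and Traf6, a ubiquitin ligase gene of the pathway, 9.89 and 12.6 CPM against 39.8 CPM (-1.83 ± 0.54). Named after their values were seen, Slc15a4, a lysosomal transporter gene needed for Toll-like receptor signalling in pDCs, had a site ranked 181, and Myd88, the central adaptor gene, one ranked 243.

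Known PU.1 target genes were above input at 5 of 30 loci (16.7%, beside 10.4% of all loci) and below at 1 (3.33%, beside 6.16%), with a median of 0.35. A site of the top 1000 lay in 8 of the loci (26.7%, beside 6.14% of all), which held a median of 44.5 windows against 15 for all loci. Tlr4, the lipopolysaccharide receptor gene, was at 1.45 ± 0.33, Spi1 at 1.32 and Btk at 1.32, although Btk was not called for its span alone (0.39). Lyz2, a lysozyme gene of myeloid cells, was at -1.01 ± 0.41 and Csf1r, the macrophage growth factor receptor gene, at 0.23 ± 0.25, neither called. Genes of MHC class II presentation had 3 of 18 above (16.7%, beside 10.4% of all loci), 1 below (5.56%, beside 6.16%) and a median of 0.30. The cathepsin genes Ctsl (2.00 ± 0.76, on 4 input counts) and Ctsb (1.18 ± 0.29) and the accessory chain gene H2-Oa (1.17 ± 0.31) were above, and H2-Eb1 was below (33.2 and 42.6 CPM against 142 CPM, -1.91 ± 0.31). Ctsl lost its call in DESeq2 (adjusted p = 0.151), H2-Oa for its span alone (0.87) and Ctsb with 50 kb flanks (0.78). Lgmn was at -0.72 ± 0.40, not called. Secretory pathway and unfolded protein response genes, which support antibody or interferon secretion, had 2 of 22 above (9.09%, beside 10.4% of all loci) and a median of -0.02: Ssr4, a translocon subunit gene (1.94 ± 0.41), and Edem1, of glycoprotein degradation (1.20 ± 0.30). None was below by the 2-fold rule in edgeR's test, at an unadjusted p under 0.05 or in DESeq2 (0 each). Creld2 (2.12 ± 0.85, on 3 input counts), Pdia4 (-1.11 ± 0.83) and Sel1l (-1.43 ± 0.91) were not called.

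Most marker genes of other cell types were not called, and each share below stands beside 10.4% of all loci above input and 6.16% below. B cell markers had 2 of 16 above (12.5%), Blk (1.28 ± 0.31) and Fcmr (1.04 ± 0.33), and 0 below. At an unadjusted p under 0.05 with the same 2-fold rule, 0 were below as well. DESeq2 called 0 of the 16 in either direction, with adjusted p = 0.189 for Blk and 0.0717 for Fcmr. Bank1 (0.90 ± 0.30) and the surrogate light chain genes Vpreb1 and Igll1, which share their windows (-0.91 ± 0.60), were not called. T and NK cell markers had 1 of 19 above (5.26%), Cd5 (1.47 ± 0.35), and 0 below in edgeR. At an unadjusted p under 0.05 with the same 2-fold rule 1 was below, and in DESeq2 0. Lck (1.32 ± 0.66), Klrb1c (0.94 ± 0.43), Zap70 (-0.84 ± 0.66) and Cd3e (-1.21 ± 0.48) were not called. Macrophage and neutrophil markers had the lowest median, -0.38, with 3 of 24 above (12.5%) and 2 below (8.33%). Marco, a scavenger receptor gene, was at 1.58 ± 0.29 with a site ranked 153, Ltf at 1.11 ± 0.26 (-1.53 for its span alone) and Cd68 at 1.01 ± 0.27, while Adgre1, which encodes F4/80 (-2.11 ± 0.48), and Siglec1 (-1.67 ± 0.50) were below. Cd68 lay at the edge of the 2-fold rule and lost its call with TMM and DESeq2 (0.99 in both), with windows of 100 or more input counts left out (0.92) and with 50 kb flanks (0.51).

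Erythroid, megakaryocyte and mast cell markers had 4 of 15 loci below input (26.7%, beside 6.16% of all loci) and 1 above (6.67%, beside 10.4%), and DESeq2 left 2 below and 0 above. Gata2 (-2.05 ± 0.57) was the lowest and Tal1 (1.00 ± 0.32) the highest, ahead of Cpa3 and Epor, which were not called. Tal1 lost its call with TMM and DESeq2 (0.98 in both). Non-haematopoietic genes had 2 of 17 above and 2 below (11.8% each), and in DESeq2 1 above and 0 below. They were Krt5 (2.01 ± 0.63) and Epcam (1.93 ± 0.43, with a site ranked 775) above, and Nkx2-5 (-2.29 ± 0.89) and Foxa2 (-1.85 ± 0.72) below, while Alb (1.93 ± 0.87, on 3 input counts) was not called. Of 22 housekeeping genes only Actb (4.55%) was above (1.76 ± 0.26, but -0.45 for its span alone, since its signal came from the site outside the gene), and 2 (9.09%) were below, Hprt (-1.84 ± 0.68) among them. Rpl4, Rpl13a and Ppia were not called. With totals over all windows, the 47 named loci that were above input stayed above, while of the 14 below only 1 stayed below, 10 lost the call and 3 changed sign.

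**Figure D5:**
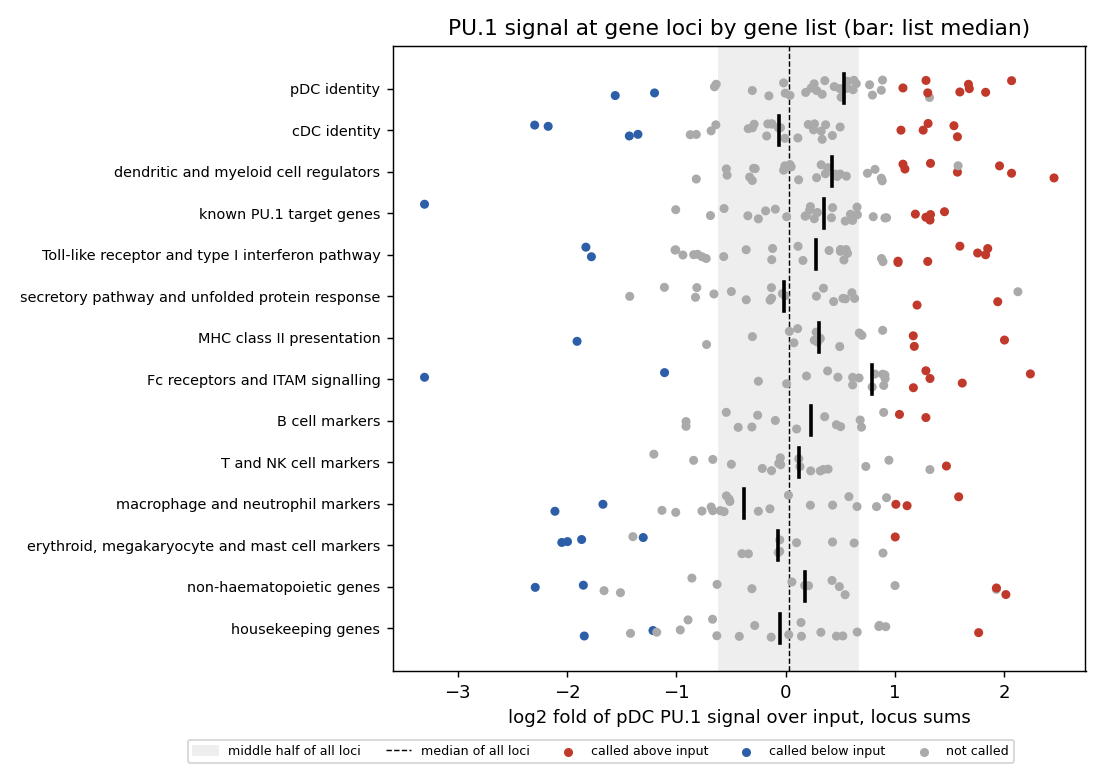
Log2 fold of pDC PU.1 signal over input per gene locus (x) for the members of 14 gene lists; points are genes, red above and blue below input by the edgeR rule, grey not called, black bars list medians, the dashed line the median of all loci and the band their interquartile range. A locus with no input count is drawn at its bound against 3 counts. The median of the Fc receptor and ITAM list, 0.79, is the highest and that of macrophage and neutrophil markers, -0.38, the lowest.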

How the data were processed

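The deposited values are whole-number read counts per 10 bp window on a 50 bp grid, with no normalization by the authors. Per the submitters' processing notes, Subread 1.4.4 and mm10 were used; the sources used here do not give read extension, filtering or how windows were chosen. Every listed window has at least 33 counts over the 5 libraries, cDC libraries included, and a read can count in neighbouring windows, so sequencing depth is unknown. The 49 bp single-end reads came from an Illumina HiSeq instrument. Columns were matched to samples by name, and 0 value columns were left unmapped.

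Counts were scaled to CPM over the kept windows. Site and locus sums were tested with edgeR 4.0.16 (quasi-likelihood, library sizes from kept totals, filterByExpr with a minimum count of 10, R 4.3.3, limma 3.58.1), after the script was tested on simulated data. A call needs a 2-fold difference and an adjusted p (Benjamini-Hochberg) under 0.05. Log2 folds carry the SE implied by the test. DESeq2 1.42.0 was an alternative. Of 21887 RefSeq protein-coding genes, 15406 had windows; the table gives spans without exons or UTRs. Promoters came from RefSeq (GRCm38.p6, 26994 genes). Intervals cover counting error only.

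Genes were named by 4 rules: the 20 strongest sites, the 15 highest called loci with at least 10 windows, the 3 highest and 2 lowest of each of 14 lists, and 20 genes whatever their values. Members and lists were chosen with earlier results of these data known. Per the labels, the pDC libraries are biological replicates. Some results that these rules name are not reported here.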

Additional observations from a re-analysis of the deposited data

How the results depend on the processing

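With totals over all windows, 25910 sites were above and 354 below input, 11057 loci above and 57 below, 3833 sites reached 10-fold in both pDC libraries, and 21.5% of 1222 promoters with a 5-fold site held GAGGAAGT; by construction the repeat windows of the input raise every fold. That scaling turned Bcl11a to 1.74, Ccr9 to 1.13, Fcgr4 to 0.63, Flt3 to 1.41, Id2 to 1.74, Lgmn to 1.03, Nfil3 to 1.22, Pacsin1 to 0.21, Runx2 to 1.45 and Siglec1 to 0.078 on the log2 scale. TMM gave 2547 sites below. DESeq2 called 589 sites and 441 loci below input, on fewer features with an adjusted p. Gene spans alone reversed Actb (-0.45), Irf4 (-0.39), Ltf (-1.53), Necab3 (-2.57) and Spib (-0.79), and spans plus 50 kb reversed Adgre1 (0.29), Fcgr4 (0.32), H2-Eb1 (0.19), Irak1 (-0.074) and Traf6 (0.69). With 50 kb, 23 of 47 named loci above input lost the call, and with DESeq2 10. The ratio with a pseudocount gave 10 sites of 10-fold, an overlap of 67.6% and 57.7% inside genes; the cause of these changes was not tested. Leaving out a pDC replicate gave 119 to 262 sites of 10-fold, 54.0 to 54.1% inside genes and 43.3 to 48.5% of promoters with GAGGAAGT. All alternatives for the promoter share were chosen after seeing the data. Tested counts without a replicate were not run, since no residual degrees of freedom remain. No paired analysis was possible because pDC replicates 1 and 2 are compared with a single input. Input depth limits the locus folds: the median ranked locus had 21 windows and 38 input counts.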

Other observations

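Of 1005 RefSeq microRNA hairpins, 518 had a site within 10 kb. In 23 of these (4.44%) it was a site of the top 1000. Neighbouring hairpins could share a site, as Mir2861 and Mir3960 did at rank 616 and Mir141 and Mir200c at rank 664. The 6.14% of gene loci that held such a site is not a like measure, since a locus includes the gene span and the share is over all tested loci. The difference was not tested. The strongest was 7.90 kb from Mir8094, near H2-D1, at 11.4-fold in replicate 1 and 9.32-fold in replicate 2. A site 3.03 kb from Mir1934 was the one at Cd68 (9.01-fold and 8.22-fold), and a site 9.36 kb from Mir574, near Tlr6, held 22.1 and 21.6 CPM over a mean input of 2.05 CPM. Several hairpins lie beside protein-coding genes, so a site cannot be assigned to the hairpin.

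Plekhm3, which encodes a protein of endosome and lysosome traffic, had 3 sites of the top 1000 in its locus, the strongest at rank 56 with 13.8-fold and 12.0-fold, and a locus log2 fold of 1.56 ± 0.25. St8sia1, a ganglioside synthase gene, and Prkce, a protein kinase C gene, also had 3 such sites each, but their loci were not called (0.72 ± 0.22 and 0.88 ± 0.22). Dapp1, an adaptor gene of phosphoinositide signalling (1.35 ± 0.24), and Grb2, the adaptor gene of receptor tyrosine kinases (1.18 ± 0.23), had 3 as well, and both were above input in edgeR's test.

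The strongest promoter site was at Cd300lf, an inhibitory receptor gene of myeloid cells, at rank 30 with 50.7 and 40.1 CPM. The site at the promoter of Cd53, a leukocyte tetraspanin gene, was at rank 123 with 41.5 and 45.4 CPM, after those at Gm14548, Kif3b (shared with Gm39961), Arpp19 and F730311O21Rik. Both Cd300lf and Cd53 contain the octamer GAGGAAGT. The Dapp1 promoter, at rank 136 with 39.4 and 25.6 CPM, contains the composite word and not the octamer.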
